A study of Homo sapiens with 4 samples.

Results

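The genes described here were 10 secreted inflammatory mediators, CXCL1, CXCL2, CXCL3, CXCL8, IL6, IL1A, IL1B, CCL20, LIF and CSF2, chosen by name and matched by gene symbol to their Ensembl identifiers. They were 10 of the 67008 genes listed in a table of read counts from the human oral cancer line SAS, a squamous carcinoma line of the tongue. The comparison asked how the transcriptome of these cells differed when STAU1 was knocked down. STAU1 encodes Staufen 1, a protein that binds double-stranded RNA and takes part in the transport, translation and decay of mRNAs. The 2 control libraries (Ctrl) came from cells infected with virus carrying a short hairpin RNA named shLuc, and the 2 knockdown libraries (shSTAU1) came from cells infected with virus carrying a hairpin named shSTAU1. All 4 libraries have the genotype WT and the treatment viral infection in their labels, and each group rests on 1 named hairpin. The cell line field of the labels names C3H 10T1/2, which is a mouse fibroblast line, while the organism is human and the growth protocol names SAS.

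CXCL1, CXCL2, CXCL3 and CXCL8 are chemokines that attract neutrophils through the receptors CXCR2 and, for CXCL8, also CXCR1. CCL20 attracts cells that carry CCR6, IL6 and LIF signal through the shared receptor chain gp130 to STAT3, and CSF2 is the growth factor GM-CSF of myeloid cells. IL1A and IL1B bind the same receptor and activate the transcription factor NF-kB, which drives many of these genes in epithelial cells, and the mRNAs of such mediators are often short-lived through AU-rich elements in the 3′ untranslated region (UTR).

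STAU1 itself was measured at 249 and 251 CPM, a scale on which the count of a gene is divided by the scaled total of its library, in the Ctrl libraries and at 41.6 and 41.5 CPM in the shSTAU1 libraries, or 16.6% of Ctrl. Its log2 fold change was -2.59 ± 0.13 (SE, edgeR quasi-likelihood test, Benjamini-Hochberg adjusted p = 0.00103). Total counts ran from 32206655 to 36301574 per library, and 14303 genes had enough counts to be tested. Of these, 161 were higher and 211 lower in shSTAU1 at an adjusted p under 0.05, and 132 were higher and 272 lower when libraries were scaled by their totals. Summed CPM of 8 squamous epithelial markers ran from 7091 to 7512 in Ctrl and from 8619 to 11262 in shSTAU1. KRT5 was the highest of them and the only 1 to pass, at 3236 and 3387 CPM in Ctrl and 5488 and 4893 CPM in shSTAU1 (adjusted p = 0.0408 in edgeR). In this list 6 genes had a log2 fold change above 0 and 2 below 0, and DSG3 was at 73.4 and 52.9 CPM in Ctrl and 40.5 and 33.8 CPM in shSTAU1. A list of 8 monocyte, macrophage and neutrophil markers summed to between 2.07 and 3.45 CPM in the 4 libraries, with PTPRC, CD163, FCGR3A and S100A12 at no more than 3 counts in every library. CSF1R, the highest of this list, had 96 and 70 counts in Ctrl and 68 and 48 in shSTAU1. CD14 went the other way, with 5 counts in each Ctrl library and 40 and 15 in shSTAU1 (adjusted p = 0.111 in edgeR). Summed CPM of 7 fibroblast markers ran from 17.9 to 22.8 in Ctrl and from 10.2 to 11.1 in shSTAU1, with COL3A1, DCN and LUM at no more than 3 counts. COL1A1 carried this difference, at 15.7 and 20.2 CPM in Ctrl and 7.84 and 6.25 CPM in shSTAU1 (adjusted p = 0.0360 in edgeR). It was the only fibroblast marker to pass, and COL1A2 was at 1.19 and 1.68 CPM against 2.15 and 3.62 CPM. The summed CPM of 5 endothelial markers ran from 15.3 to 18.1 in Ctrl and from 8.12 to 17.0 in shSTAU1, with PECAM1 and KDR at no more than 3 counts. VWF had 457 and 270 counts in Ctrl and 432 and 110 in shSTAU1, and CDH5 had 149 and 230 against 159 and 152. The part of any of these differences in the results was not tested.

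Of the 10 mediators, 4 fell in shSTAU1, namely the chemokines CXCL8, CXCL1 and CXCL2 and the cytokine IL6, and none rose. Over all tested genes, 1.48% were called lower and 1.13% higher. CXCL8 fell to 16.6% of its Ctrl level, CXCL2 to 24.0%, CXCL1 to 27.5% and IL6 to 36.5%. For CCL20 and CXCL3 no shSTAU1 library reached a Ctrl library, but neither gene passed the test, and for IL1A, IL1B, LIF and CSF2 the groups overlapped. The groups were thus apart, with shSTAU1 lower, for 6 of the 10, as they were for 28.0% of the tested genes. At an unadjusted p under 0.05, 5 of the 10 were lower, CCL20 in addition to those that passed, against 11.6% of the tested genes. All 10 had a log2 fold change below 0, as had 49.6% of the tested genes, and their median was -1.46 against 0.0059 over all tested genes. It ran from -1.75 to -0.84 with each library left out in turn, and the value nearest 0 came without Ctrl replicate 1. The 5th percentile of all tested genes was -1.16, and 6 of the 10 mediators lay below it. The 10 genes were chosen with earlier results of these data known, so these comparisons with all tested genes do not test them as a set. Fewer cells that make a mediator and less RNA per cell cannot be told apart in these bulk libraries. The labels do not say that replicates came from separate cultures, so p-values measure the spread between these libraries, which may be technical. A permutation of 2 against 2 libraries cannot give an exact two-sided p below 0.333.

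**Figure D1:**
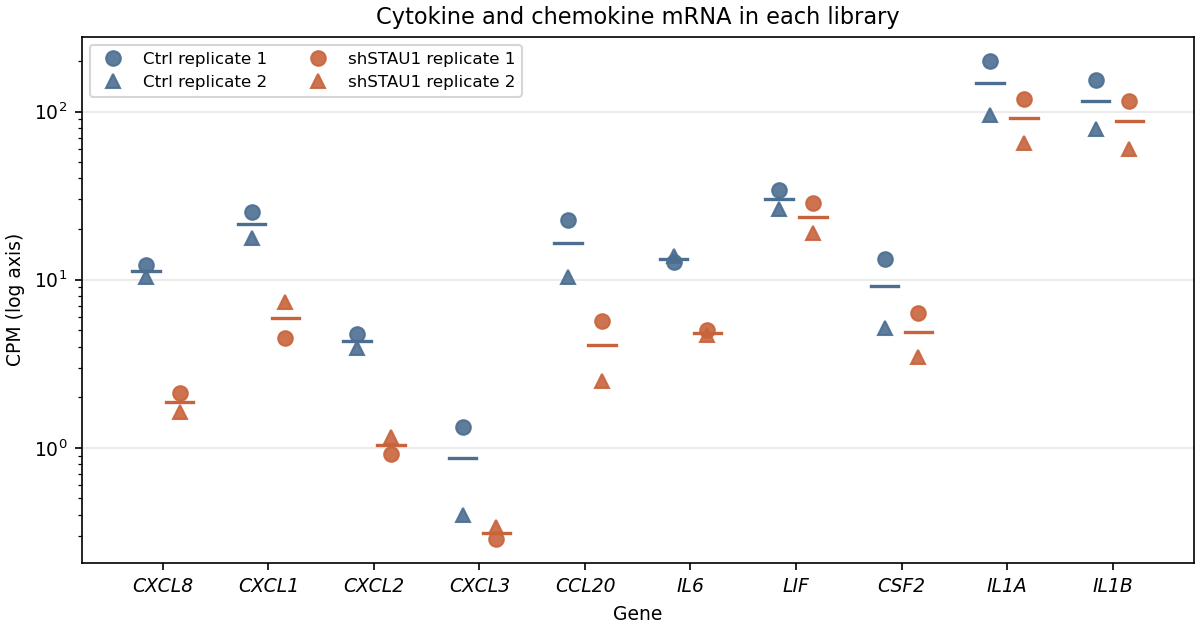
CPM of the 10 genes in each of the 4 libraries on a log10 axis, with circles for replicate 1, triangles for replicate 2 and short bars for the group means. CXCL8, CXCL2, IL6 and CXCL1 have both shSTAU1 points at least 2.39-fold below the lower Ctrl point, while the points of IL1A, IL1B, LIF and CSF2 interleave.

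CXCL8 (ENSG00000169429, interleukin 8, chr4:73740506-73743716 on GRCh38, plus strand) had 413 and 339 counts in Ctrl and 74 and 58 counts in shSTAU1, which are 12.3, 10.4, 2.13 and 1.64 CPM. The libraries of each group lay close together and the groups were far apart, with the lowest Ctrl library 4.87-fold above the highest shSTAU1 library. The Ctrl mean was 11.3 ± 1.36 CPM and the shSTAU1 mean 1.88 ± 0.34 CPM (SD, n = 2 each), and its log2 fold change was -2.59 ± 0.27 (SE, adjusted p = 0.0132).

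CXCL1 (ENSG00000163739, chr4:73869393-73871242, plus strand), also called GRO-alpha, had 855 and 576 counts in Ctrl and 156 and 260 counts in shSTAU1. These are 25.4 and 17.6 CPM against 4.48 and 7.36 CPM, so that the groups did not overlap although the shSTAU1 libraries differed 1.64-fold from each other. Its log2 fold change was -1.86 ± 0.30 (SE, adjusted p = 0.0357). CXCL2 (ENSG00000081041, chr4:74097035-74099293, minus strand), a close relative of CXCL1, was measured at 4.76 and 3.91 CPM in Ctrl and at 0.919 and 1.16 CPM in shSTAU1. Its groups lay 3.37-fold apart at their nearest libraries, and its log2 fold change was -2.06 ± 0.34 (SE, adjusted p = 0.0358).

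CXCL3 (ENSG00000163734, chr4:74036589-74038807, minus strand), the third of the GRO chemokines, was the least abundant of the 10 with 45 and 13 counts in Ctrl and 10 and 12 counts in shSTAU1. The Ctrl libraries differed 3.37-fold from each other, and the lower of them was only 1.17-fold above the higher shSTAU1 library. Its log2 fold change of -1.46 ± 0.71 (SE) did not pass the test (adjusted p = 0.250), and it was -0.34 without Ctrl replicate 1. Reads of CXCL1, CXCL2 and CXCL3 may have been split between these related genes. Among all words of 50 bases in each transcript, 5.73% of those of CXCL1, 9.24% of those of CXCL2 and 5.26% of those of CXCL3 also occurred in another of these transcripts. With the counts of all 3 genes summed into 1 feature, the log2 fold change was -1.88 (adjusted p = 0.0335 in edgeR). CXCL1 gave most of these counts in every library, so the sum says little about CXCL3. Summed over CXCL1, CXCL2, CXCL3 and CXCL8, the CPM was 43.8 and 32.3 in Ctrl and 7.81 and 10.5 in shSTAU1.

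All 4 CXC chemokine genes lie within 358788 bases of chromosome 4, from the start of CXCL8 to the end of CXCL2. This stretch holds 9 protein-coding genes in GENCODE 29, and the 5 others (CXCL6, PF4V1, PF4, PPBP and CXCL5) had no read in any library. Every protein-coding gene of the stretch with reads was thus among the mediators described here.

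Part of the promoters of these genes is shown because all 4 mediators that fell, and 3 that did not pass, hold a short word close to their start sites. In the RefSeq promoters of GRCh38.p14, from 250 bases before to 50 bases after the start of transcription, the word GGNNNTTCC, which resembles the sequence NF-kB binds, was searched on both strands. This word was chosen after the sequences were seen. It occurred in 7 of the 9 mediators with a promoter and in 20.1% of 35116 promoters, shares that are counted by gene and by promoter. Because of how the word was chosen, these shares cannot test an enrichment among the mediators. Each line gives 30 bases on the strand of the gene, 5′ to 3′, with the matched word in capitals.

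CXCL1 (chr4:73869304-73869333, plus strand): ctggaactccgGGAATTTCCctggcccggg
CXCL2 (chr4:74099254-74099283, minus strand): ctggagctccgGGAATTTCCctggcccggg
CXCL3 (chr4:74038749-74038778, minus strand): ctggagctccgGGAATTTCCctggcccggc
CXCL8 (chr4:73740467-73740496, plus strand): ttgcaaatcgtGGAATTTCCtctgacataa
IL6 (chr7:22727117-22727146, plus strand): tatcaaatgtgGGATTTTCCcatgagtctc
CCL20 (chr2:227813752-227813781, plus strand): ttgatcaatggGGAAAACCCcatgtggcaa
CSF2 (chr5:132073693-132073722, plus strand): tccacagttcaGGTAGTTCCcccgcctccc

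The first capital stood at base -78 from the start site in CXCL1 and CXCL3, at -77 in CXCL2, at -91 in CXCL8, at -72 in IL6, at -79 in CCL20 and at -85 in CSF2. In CCL20 the match was on the opposite strand, and in the 4 CXC chemokine genes the word matched on both strands. CXCL1, CXCL2, CXCL3 and CXCL8 held the single word GGAATTTCC, which is 1 form of the searched word and occurred in 0.461% of the promoters. Like the searched word, this form was named after the sequences were seen. CXCL1, CXCL2 and CXCL3 are also related genes with nearly the same letters in the stretches shown, so their matches are not separate occurrences. The share of this form thus cannot test an enrichment either. A second match, GGGCTTTCC, began at -53 in CXCL1, CXCL2 and CXCL3, and another, GGAGATTCC, at -102 in CSF2. The promoters of IL1A and IL1B held no match in this window. These matches describe letters and not bound sites.

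CCL20 (ENSG00000115009, chr2:227805739-227817564, plus strand), the ligand of CCR6, had 759 and 338 counts in Ctrl and 199 and 88 counts in shSTAU1. These are 22.6 and 10.3 CPM against 5.72 and 2.49 CPM. The groups did not overlap, but the libraries differed 2.19-fold within Ctrl and 2.30-fold within shSTAU1. Its level in shSTAU1 was 24.9% of that in Ctrl, with a log2 fold change of -2.0 ± 0.47 (SE) that did not pass the test (adjusted p = 0.0655). CCL20 passed in DESeq2, and it passed when Ctrl replicate 2, shSTAU1 replicate 1 or shSTAU1 replicate 2 was left out.

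IL6 (ENSG00000136244, chr7:22725884-22732002, plus strand), a cytokine of the acute phase response, was the most even of the 10 between replicates. It had 426 and 454 counts in Ctrl and 175 and 165 counts in shSTAU1, or 12.7, 13.9, 5.03 and 4.67 CPM. The lower Ctrl library was 2.52-fold above the higher shSTAU1 library, while libraries of a group differed by 1.09-fold at most. IL6 fell by 1.45 ± 0.21 on the log2 scale (SE, adjusted p = 0.0328). LIF (ENSG00000128342, chr22:30240447-30246851, minus strand), which acts through the LIFR and gp130 receptor chains, was measured at 34.2 and 26.2 CPM in Ctrl and at 28.4 and 18.9 CPM in shSTAU1. One shSTAU1 library lay between the Ctrl libraries, and the log2 fold change was -0.35 ± 0.23 (SE, adjusted p = 0.388).

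CSF2 (ENSG00000164400, chr5:132073790-132076170, plus strand) had 445 and 168 counts in Ctrl and 221 and 123 counts in shSTAU1, or 13.2, 5.13, 6.35 and 3.48 CPM. The Ctrl libraries differed 2.58-fold, and shSTAU1 replicate 1 lay above Ctrl replicate 2, while each shSTAU1 library lay below the Ctrl library of the same number. Its log2 fold change of -0.90 ± 0.47 (SE, adjusted p = 0.276) was -0.069 without Ctrl replicate 1.

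IL1A and IL1B, the founding cytokines of the interleukin 1 family, were the most abundant of the 10. IL1A (ENSG00000115008, chr2:112773915-112784590, minus strand), which is active as a precursor and is released by damaged epithelial cells, was measured at 201 and 94.9 CPM in Ctrl and at 119 and 64.5 CPM in shSTAU1. IL1B (ENSG00000125538, chr2:112829751-112836903, minus strand), whose precursor needs cleavage by caspase 1, was measured at 153 and 78.6 CPM in Ctrl and at 116 and 60.2 CPM in shSTAU1. In both genes shSTAU1 replicate 1 lay above Ctrl replicate 2, so that the groups overlapped. Each shSTAU1 library lay below the Ctrl library of the same replicate number in both genes, but the labels do not say what the number marks. The log2 fold change was -0.68 ± 0.38 for IL1A (SE, adjusted p = 0.304) and -0.40 ± 0.37 for IL1B (SE, adjusted p = 0.535). Without Ctrl replicate 1 these values were -0.052 and 0.16. Whether the changes of CXCL8, CXCL1, CXCL2 and IL6 differed from those of IL1A, IL1B, LIF and CSF2 was not tested.

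**Figure D2:**
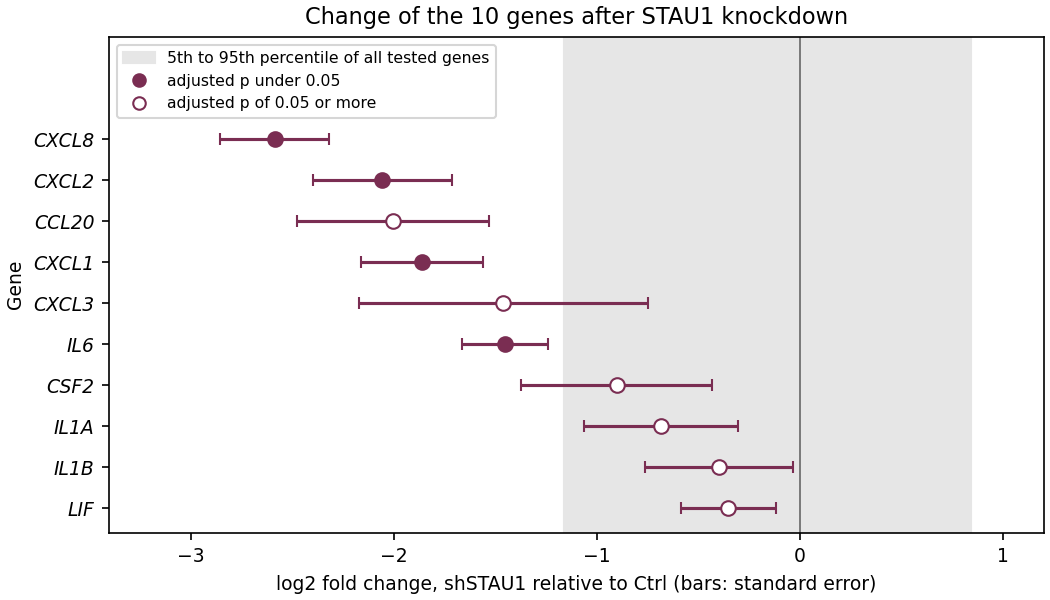
Log2 fold change of each of the 10 genes in shSTAU1 relative to Ctrl, with bars of 1 SE from edgeR, filled points for an adjusted p under 0.05 and a grey band from the 5th to the 95th percentile of all tested genes (-1.16 to 0.84). The filled points are CXCL8, CXCL2, CXCL1 and IL6, and the SE of CXCL3 (0.71) is wider than that of the other genes.

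Several of the mediators differed between replicates of the same group by as much as between groups. The median fold between the Ctrl libraries was 1.70 for the 10 genes and 1.16 for all tested genes, and between the shSTAU1 libraries it was 1.57 and 1.22. CXCL3, CSF2, CCL20, IL1A and IL1B differed more than 1.5-fold between the Ctrl libraries, as did 17.1% of the tested genes. Ctrl replicate 2 held less than Ctrl replicate 1 of 9 of the 10 mediators, all except IL6, and shSTAU1 replicate 2 held less than shSTAU1 replicate 1 of 7. Over all tested genes these shares were 50.3% and 50.6%. The summed level of the 10 genes was 481 and 261 CPM in Ctrl and 289 and 165 CPM in shSTAU1, so that the sums overlapped. IL1A and IL1B made up most of the sum in every library, so it mainly follows these genes. Between libraries of the same replicate number, the sum was lower in shSTAU1 each time.

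The calls depended on which libraries were used. Without Ctrl replicate 1 no mediator passed in edgeR, 4 had an unadjusted p under 0.05, and no gene of the table passed, STAU1 included. Without Ctrl replicate 2, CXCL1, CXCL8 and CCL20 passed, while CXCL2 (adjusted p = 0.0782) and IL6 (adjusted p = 0.113) did not. Without shSTAU1 replicate 1 more mediators passed, but so did many more of all tested genes. The log2 fold changes of the 10 then ran from -2.77 to -0.66. Leaving out each library in turn kept the log2 fold change of CXCL8 between -2.77 and -2.42, of CXCL2 between -2.24 and -1.89, of CXCL1 between -2.27 and -1.54 and of IL6 between -1.52 and -1.38. The range was wider for CCL20, from -2.71 to -1.34, for CXCL3, from -2.08 to -0.34, and for LIF, from -0.66 to -0.10. With every gene that had a read included in the test, none of the 10 passed in edgeR and 5 had an unadjusted p under 0.05, and CXCL8 then had an adjusted p of 0.0514.

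**Figure D3:**
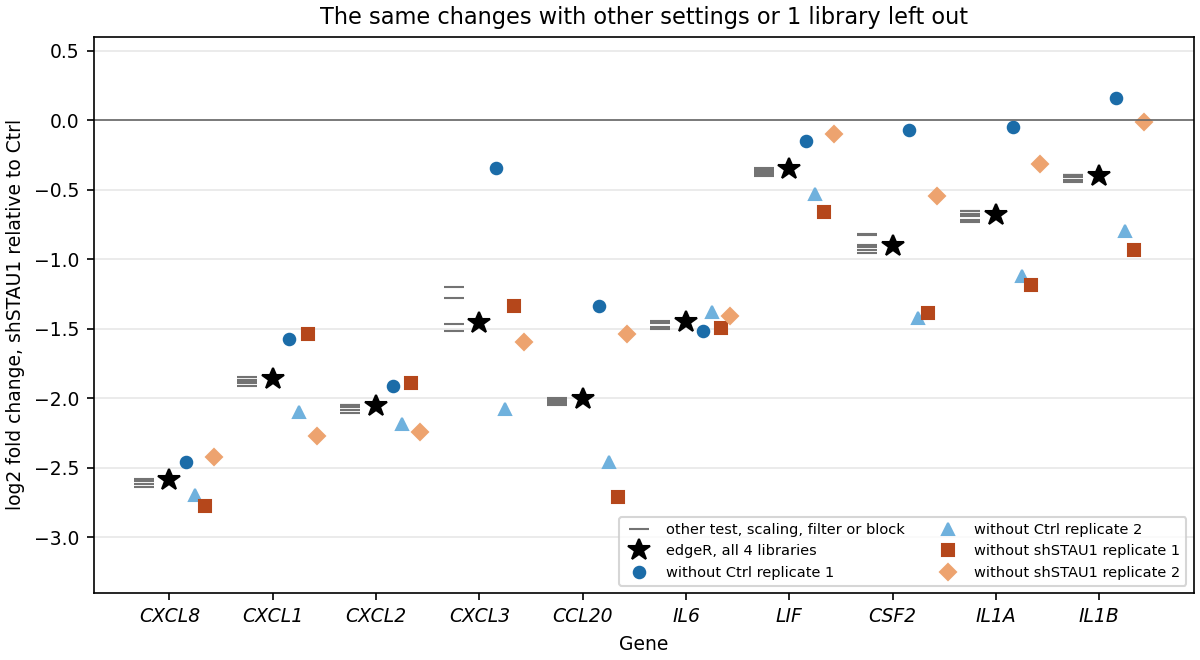
Log2 fold change of the 10 genes with stars for edgeR on all 4 libraries, grey dashes for another test, scaling, filter or block, and coloured points for each library left out. CXCL8 stays between -2.77 and -2.42 when single libraries are left out, while IL1B moves from -0.94 to 0.16.

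Levels of different genes were compared as CPM per kilobase of their longest protein-coding transcript in GENCODE 29. On this scale, in the order of the Ctrl means, IL1B (71.1 in Ctrl and 54.0 in shSTAU1) and IL1A (69.6 and 43.3) stood above the other mediators, and their spread between libraries was larger than the difference between them. CXCL1 (19.6 and 5.40) and CCL20 (19.6 and 4.89) followed with like levels. CSF2 was next at 11.7 and 6.24, followed by IL6 at 8.69 and 3.17, LIF at 7.61 and 5.96 and CXCL8 at 6.64 and 1.10. CXCL2 (3.56 and 0.854) and CXCL3 (0.807 and 0.292) were lowest in both groups. The order differed in shSTAU1, where CSF2 and LIF stood above CXCL1 and CCL20, and LIF above IL6. These lengths include the 3′ UTR, while the libraries were prepared with an exome capture kit. How far captured counts follow this length was not tested, so the order may depend on the scale. In LIF the 3′ UTR is 3204 of 3969 bases. By CPM alone LIF (mean of 30.2 in Ctrl) stood above IL6 (13.3) and CSF2 (9.18).

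The 3′ UTRs of the mediators carry the AU-rich word ATTTA, which is written AUUUA in the mRNA and is known from unstable transcripts. All 10 held at least 3 copies in GENCODE 29. CXCL2 held 10 copies in 721 bases and CSF2 held 8 copies in 318 bases. At least as many copies as in CXCL2 occurred in 0.345% of genes with a 3′ UTR of comparable length (0.5 to 2 times as long), and as in CSF2 in 0.0988%. CXCL8 held 9 copies in 1252 bases (5.63%), CXCL3 7 in 673 bases (2.32%), IL6 6 in 429 bases (1.43%), IL1B 6 in 610 bases (3.86%) and CXCL1 5 in 706 bases (9.0%). CCL20 with 3 copies in 481 bases (13.9%), IL1A with 5 in 1152 bases (21.5%) and LIF with 7 in 3204 bases (45.4%) were less set apart. The densest stretch of 3 mediators that fell and of 2 whose groups overlapped is given for comparison, on the strand of the gene, 5′ to 3′, with the word in capitals.

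CXCL2 (chr4:74097590-74097619, minus strand): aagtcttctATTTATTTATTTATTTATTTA
CXCL1 (chr4:73870665-73870694, plus strand): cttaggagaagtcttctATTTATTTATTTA
CXCL8 (chr4:73743108-73743137, plus strand): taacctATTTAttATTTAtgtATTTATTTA
CSF2 (chr5:132076072-132076101, plus strand): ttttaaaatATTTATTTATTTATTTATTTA
IL1B (chr2:112830003-112830032, minus strand): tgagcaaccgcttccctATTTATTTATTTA

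Both CXCL2, which fell, and CSF2, which did not pass the test, held a run of overlapping copies of the word. IL6 fell with 6 copies, and IL1B with the same number of copies did not pass. The densest stretch of IL6, which is not shown, held 2 copies. Whether the copies of this word have a part in the changes was not tested.

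Around the mediators, 8 lists of 125 genes were examined, for receptors, interleukin 1 processing, NF-kB signalling, NF-kB targets, AP-1 and C/EBP factors, gp130 signalling, factors that act on AU-rich mRNAs and other cytokines. Of the 92 that were tested, 5 fell and none rose. Over all tested genes 1.48% were called lower and 1.13% higher, or 2.6% in either direction. Without Ctrl replicate 1 none of the 92 passed in edgeR, and 9 had an unadjusted p under 0.05. Without Ctrl replicate 2, BIRC3 was the only one of the 5 to pass, and ICAM1 and PTGS2 passed in addition. Without either shSTAU1 replicate more genes of these lists passed, but so did many more of all tested genes. With no filter on low counts none passed, and 31 had an unadjusted p under 0.05.

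Of 11 receptor genes for these mediators, 6 had enough counts to be tested, and none passed in edgeR, with a median log2 fold change of -0.35. This median was -0.19 without Ctrl replicate 2 and -0.54 without shSTAU1 replicate 2. CXCR1, CCR6 and CSF2RA had no read in any library, and CXCR2, the receptor of the CXC chemokines, had 8 and 0 counts in Ctrl and 11 and 9 in shSTAU1. For CSF2RA only the entry on chromosome X was examined, and any entry on chromosome Y was left out. IL6ST, which encodes gp130, had a mean of 184 ± 4.48 CPM in Ctrl against 173 ± 2.37 CPM in shSTAU1 (SD, n = 2 each), with a log2 fold change of -0.09 (adjusted p = 0.683). LIFR had a log2 fold change of -0.64 (adjusted p = 0.136). IL1RAP, the co-receptor for IL1A and IL1B and chosen after its values were seen, had 1431 and 1028 counts in Ctrl and 822 and 465 in shSTAU1 (adjusted p = 0.0900).

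Among 10 tested genes of the interleukin 1 family and its processing, 1 fell. NLRP3, the sensor of the inflammasome that activates caspase 1, was measured at 6.45 and 5.41 CPM in Ctrl and at 1.46 and 1.53 CPM in shSTAU1. The groups were well apart, and its log2 fold change was -1.98 ± 0.30 (SE, adjusted p = 0.0338). NLRP3 did not pass without Ctrl replicate 2 (adjusted p = 0.0599). The calpain genes CAPN1 and CAPN2, whose products cleave the IL1A precursor, had log2 fold changes of 0.47 (adjusted p = 0.137) and 0.05 (adjusted p = 0.853). IL1RN, which encodes the antagonist of the IL1 receptor and was chosen after its values were seen, had 13 and 36 counts in Ctrl and 103 and 54 in shSTAU1, and did not pass (log2 fold change 1.59, adjusted p = 0.154). The median of the list was 0.43, and it was 0.13 without Ctrl replicate 2 and 0.072 without shSTAU1 replicate 1.

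Of 20 tested components of NF-kB and interleukin 1 signalling, 2 fell, with a median log2 fold change of -0.11. The median ran from -0.25 without shSTAU1 replicate 1 to -0.023 without Ctrl replicate 1, with -0.17 and -0.059 without replicates 2 of Ctrl and shSTAU1. NFKBIZ encodes IkappaB-zeta, a nuclear cofactor that NF-kB induces, and was measured at 22.2 and 23.2 CPM in Ctrl and at 10.2 and 11.8 CPM in shSTAU1. Its log2 fold change was -1.04 ± 0.18 (SE, adjusted p = 0.0360). TNFAIP3 encodes A20, an inhibitor of NF-kB signalling, and was measured at 62.3 and 47.3 CPM in Ctrl and at 30.5 and 29.1 CPM in shSTAU1. Its log2 fold change of -0.88 ± 0.17 (SE, adjusted p = 0.0474) was past the threshold in edgeR but not in limma-voom (adjusted p = 0.0519). Without Ctrl replicate 2 neither NFKBIZ (adjusted p = 0.170) nor TNFAIP3 (adjusted p = 0.0936) passed. CHUK and TNIP1, the most abundant of the list, had values of -0.04 and -0.02 and did not pass. The subunit gene NFKB1 and the inhibitor gene NFKBIA, both chosen after their values were seen, had values of 0.38 (adjusted p = 0.126) and -0.21 (adjusted p = 0.573).

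Among 10 tested targets of NF-kB that are not cytokines, 1 fell, and the median log2 fold change was -0.60. It was below 0 for 8 of them, as it was for 49.6% of all tested genes. BIRC3, which encodes the apoptosis inhibitor cIAP2, had 204 and 170 counts in Ctrl and 30 and 47 in shSTAU1. Its groups did not overlap, and its log2 fold change was -2.36 ± 0.35 (SE, adjusted p = 0.0328). PLAU, the gene of urokinase, had a value of -0.64 (adjusted p = 0.0888), and TNFAIP2 had 0.10 and groups that overlapped. PTGS2, the gene of cyclooxygenase 2, and ICAM1, an adhesion molecule, were chosen after their values were seen. PTGS2 had 297 and 73 counts in Ctrl and 37 and 48 in shSTAU1 (adjusted p = 0.0878), and ICAM1 had 1646 and 799 in Ctrl and 629 and 308 in shSTAU1 (adjusted p = 0.0877). As with CCL20, neither passed although the groups did not overlap. Both passed without Ctrl replicate 2 and without either shSTAU1 replicate, PTGS2 passed in DESeq2, and without Ctrl replicate 1 their log2 fold changes were -0.88 for PTGS2 and -0.87 for ICAM1, against -2.19 and -1.45 in all libraries.

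None of 10 AP-1 and C/EBP factors passed in edgeR, and the median was 0.24, with a change of sign to -0.091 without shSTAU1 replicate 1. It was 0.11 without Ctrl replicate 1 and 0.39 without shSTAU1 replicate 2. FOSL1 and FOSL2, the most abundant of them, had log2 fold changes of 0.29 and -0.22. Of 9 tested genes of gp130, JAK and STAT3 signalling, 1 fell, with a median of -0.17. The median was -0.28, -0.053, -0.27 and -0.34 without Ctrl replicates 1 and 2 and shSTAU1 replicates 1 and 2. OSMR, the receptor chain for oncostatin M that pairs with gp130, was measured at 553 and 482 CPM in Ctrl and at 323 and 255 CPM in shSTAU1, with a log2 fold change of -0.84 ± 0.16 (SE, adjusted p = 0.0396). Without Ctrl replicate 2 it did not pass (adjusted p = 0.111). PTPN11, a phosphatase downstream of gp130, had a value of 0.17. SOCS3, a feedback inhibitor that STAT3 induces and chosen after its values were seen, had 176 and 169 counts in Ctrl and 65 and 104 in shSTAU1 (adjusted p = 0.0926).

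None of 15 genes for factors that act on AU-rich mRNAs passed in edgeR, with a median log2 fold change of 0.0081 that ran from 0.0026 to 0.11 with each library left out, the latter without Ctrl replicate 1. CNOT1, the scaffold of the deadenylase complex, and HNRNPD, which encodes AUF1, had values of 0.0037 and 0.19. ZFP36, which encodes the decay factor tristetraprolin, and KHSRP, another decay factor, were chosen after their values were seen. ZFP36 had a value of -0.23, and KHSRP had 4871 and 5876 counts in Ctrl and 8469 and 10849 in shSTAU1 without passing in edgeR (log2 fold change 0.76, adjusted p = 0.0581). It was higher past the threshold in DESeq2 (adjusted p = 0.0015), with the replicate number as a block, and without either shSTAU1 replicate.

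Of 30 other cytokine and chemokine genes, 12 had no read in any library, TNF, CXCL5, CXCL6 and CXCL10 among them, and 12 were tested. None passed in edgeR, and 10 of the 12 had a log2 fold change below 0, as had 49.6% of all tested genes. Their median was -0.79. Counts were low for several of them, with TSLP, IL15, CCL28, CSF3 and CCL2 at no more than 38 in any library. The median was -0.30 without shSTAU1 replicate 2. IL24, of the interleukin 10 family, was measured at 13.9 and 16.4 CPM in Ctrl and at 6.69 and 8.49 CPM in shSTAU1, and its log2 fold change of -1.0 ± 0.22 (SE) did not pass (adjusted p = 0.0592). CLCF1, a cytokine of the IL6 family, had a value of 0.25. CSF3, CCL2 and CXCL16 were chosen after their values were seen. CSF3, the gene of G-CSF, had 17 and 21 counts in Ctrl and 3 and 4 in shSTAU1 (adjusted p = 0.0884), and CCL2 had 38 and 12 in Ctrl and 7 in each shSTAU1 library (adjusted p = 0.171). CXCL16 had a log2 fold change of 0.81 (adjusted p = 0.141). Of the other lists, NFKBIB and GSDMD were also among the genes with no read in any library. The aligner and the annotation are not given, and whether genes with no read were silent in these cells was not tested.

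**Figure D4:**
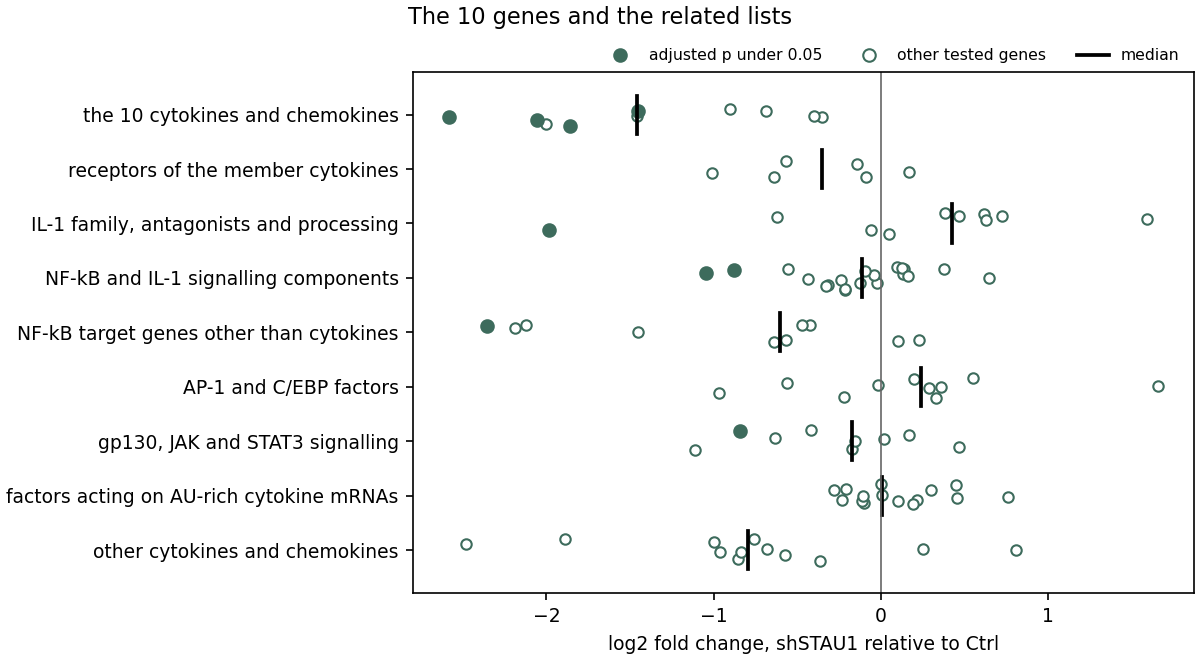
Log2 fold change of every tested gene of the 10 mediators and of the 8 related lists, in shSTAU1 relative to Ctrl, with filled points for an adjusted p under 0.05 and a black bar for each median. The mediators have a median of -1.46 and the other cytokines and chemokines one of -0.79, while the AU-rich factors centre on 0.0081.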

How the data were processed

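RNA-seq libraries were prepared by the authors from total RNA with an exome capture kit, and the authors deposited raw whole-number counts for each gene, with no normalization. The submitters' processing notes name Partek and hg38. The aligner, the counter, the strand setting and the annotation release are not given in the sources used here. Without strand, reads of overlapping and antisense genes cannot be told apart. Of the 67008 identifiers, 42005 matched a symbol, and 58561, with 99.9% of the counts, are in GENCODE 29 on GRCh38. That release gave positions, transcript lengths and 3′ UTRs. RefSeq promoters matched 9 of the 10 genes.

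The tests were run with edgeR 4.0.16 under R 4.3.3 (filterByExpr, TMM, quasi-likelihood test, no covariates), in all 4 libraries, with Benjamini-Hochberg adjustment over 14303 genes and a threshold of 0.05. The biological coefficient of variation was 19.1%. CPM were scaled by TMM. The libraries of a group differed beyond sampling noise (chi-square divided by its degrees of freedom, 25.4 in Ctrl and 61.6 in shSTAU1), and each counted as a replicate. No count of the 10 genes was below 10 or above 6746 in any library. The script was tested on simulated counts.

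The 10 genes and all lists were chosen with earlier results of these data known. Named genes are the 10, STAU1, and in each list those past the threshold and the 2 with the highest mean CPM, and others are marked where they appear. SOD2 was not matched by symbol and was not analysed here. Alternatives were DESeq2 1.42.0, limma-voom (limma 3.58.1), scaling by library size, no filter, a filter of 1 CPM in 2 libraries, a block for the replicate number, each library left out, an adjusted p under 0.10, and an unadjusted p under 0.05 together with a 1.5-fold change. CXCL1, CXCL2 and CXCL3 were also summed.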

Additional observations from a re-analysis of the deposited data

How the results depend on the processing

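The counts of genes past the threshold moved with the setting. Of all tested genes, 372 passed in edgeR, against 1437 in DESeq2, 363 in limma-voom, 404 with library size, 445 with the stricter filter, 11 with no filter on low counts, 1585 at an adjusted p under 0.10 and 2098 at an unadjusted p under 0.05 with a 1.5-fold change. Of the 10 mediators, 4 passed, with 5 in DESeq2, at the 0.10 threshold and with the fold change threshold, and 0 in edgeR with no filter, where 5 had an unadjusted p under 0.05. CXCL3 was removed by the stricter filter and has no adjusted p in DESeq2. Of the genes of the related lists, 5 passed, with 11 in DESeq2 (LIFR, IL1RAP, PLAU, PTGS2 and IL24 lower and KHSRP higher in addition), 14 at the 0.10 threshold, 23 with the fold change threshold and 0 in edgeR with no filter (31 at an unadjusted p under 0.05). With each library left out, where the lone library is assumed to vary like the other group, these counts ran from 0 to 2780 for all genes, from 0 to 9 for the mediators and from 0 to 23 for the related lists. The 0 came without Ctrl replicate 1, when STAU1 kept a log2 fold change of -2.60 with an adjusted p of 0.490 and 1502 genes had an unadjusted p under 0.05. STAU1 ranged from -2.60 to -2.58. The cause was not tested.

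Libraries with the same replicate number share only a number in the labels, and their deviations from the group means had a correlation of 0.27. In the fit with a replicate block, 4087 genes passed, among them 8 of the mediators (IL1A, IL1B, CCL20 and CSF2 in addition) and 34 genes of the related lists, on 1 residual degree of freedom.

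The sign changed for 8 genes, none of which passed in the reported fit. IL1B ranged from -0.94 to 0.16 when each library was left out, CAPN2 from -0.056 to 0.17, CHUK from -0.14 to 0.060, TNIP1 from -0.24 to 0.17, NFKBIA from -0.51 to 0.027, TNFAIP2 from -0.41 to 0.48, PTPN11 from -0.022 to 0.34 and CNOT1 from -0.082 to 0.086. CAPN2 was -0.00029 with library size, and CNOT1 was -0.049 with library size, -0.0027 with no filter and -0.029 with the stricter filter. Of 525 values of 44 single genes under all alternatives, 404 kept their direction and side of the threshold, 78 passed in addition, 25 no longer passed and 18 changed sign. Of 90 values of the medians of the mediators and the 8 lists, 3 moved by more than the spread, to -0.84 for the mediators, to -0.091 for the AP-1 and C/EBP factors, whose sign changed, and to -0.30 for the other cytokines, each with 1 library left out. With 2 libraries a group and 10 to 45 counts, CXCL3 had the largest standard error of the mediators (0.71).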
